A study of Caenorhabditis elegans with 2 samples.

Results

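The regions described here are 583 peaks of ChIP-seq signal that lay in the promoters of divergent gene pairs, where a coding gene on the minus strand and a coding gene on the plus strand start next to each other and run apart. They were chosen by position alone. The final list holds the peaks that passed the authors' threshold on the irreproducible discovery rate, a measure of reproducibility. Its peaks on any chromosome but X were considered by their summit, the highest point. A peak was a member when its summit fell in promoter windows of coding genes on both strands. A window runs from 1000 bp upstream of a transcript 5′ end to 200 bp beyond it. Summits in the window of a tRNA, snRNA or snoRNA gene were left out. The members were 14.1% of the 4133 peaks of the final list and 17.9% of its 3256 autosomal peaks (exact 95% binomial interval 16.6 to 19.3%). They are set beside the 1294 autosomal peaks whose summits lay in promoter windows of coding genes on 1 strand only, called one-sided peaks. The intervals given cover counting error only, since peaks are not replicates of an experiment.

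The study mapped where NHR-90, a nuclear hormone receptor of the nematode Caenorhabditis elegans, was found on the genome of whole L1 larvae, the first larval stage. The strain was OP483, of the genotype unc-119(tm4063) III; wgIs483, which stably expresses NHR-90 with a C-terminal GFP-FLAG tag from a transgene, and chromatin sheared by sonication was precipitated with an antibody against GFP. The hermaphrodites were collected 6 hours after synchronization, for which larvae were starved after bleaching. The 2 samples were biological replicates of this 1 group, a single transgenic line. No untagged strain or other condition entered the comparisons, the control library named in the labels was not analysed here, and the lists give signals and not reads, so sequencing depth is unknown.

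Divergent promoters are common in compact genomes: the stretch between the start sites is short, and factors that bind it are near both genes. In C. elegans many primary transcripts are trimmed by trans-splicing, in which a short leader RNA replaces the original 5′ end, so an annotated 5′ end can lie downstream of the true start. Nuclear hormone receptors are ligand-regulated zinc-finger transcription factors, a family much expanded in nematodes, and many bind a hexamer called the half-site. GAGA repeats and the related EOR-1 site (EOR-1 is a zinc-finger factor) are common at C. elegans promoters and at places where many factors are found together.

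Sequence around a few summits shows what the motif counts refer to. Each run is the 101 bases centred on a summit, read 5′ to 3′ on the plus strand of the RefSeq assembly WBcel235 (ce11), and none of these windows holds an annotated exon. The first set is the strongest members of chromosomes II, III, IV and V, among those with no exon in the window, that hold the GC-rich pentamer GCGCG, the commonest of 16 motifs searched, with its matches on either strand in capitals. The set was chosen after its values were seen.
K01G5.10/tasp-1, chrIII:10759199-10759299: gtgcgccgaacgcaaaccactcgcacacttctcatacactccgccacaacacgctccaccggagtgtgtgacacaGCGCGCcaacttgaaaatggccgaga
C47E8.4/hsp-90, chrV:14685696-14685796: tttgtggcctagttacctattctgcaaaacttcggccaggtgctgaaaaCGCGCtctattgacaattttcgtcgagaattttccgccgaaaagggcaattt
drr-2/set-16, chrIII:13643684-13643784: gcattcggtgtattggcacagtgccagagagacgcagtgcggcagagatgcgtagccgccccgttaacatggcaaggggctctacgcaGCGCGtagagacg
The pentamer overlaps its own reverse complement, so a run such as that at K01G5.10/tasp-1 counts on both strands. The windows lie between K01G5.10 and tasp-1 (a protease of the threonine aspartase family), C47E8.4 and hsp-90 (the Hsp90 chaperone), and drr-2 (a relative of the translation factor eIF4H) and set-16 (a histone H3 lysine 4 methyltransferase). The drr-2/set-16 window also held the Sp1 site, the GAGA repeat and the EOR-1 site.

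The second set holds members with a GAGA repeat (GAGAGA) or an EOR-1 site (GAGACGCAG), with matches on either strand in capitals. They are the strongest on the same 4 chromosomes that have no exon in the window and are not shown above, so some stronger members, drr-2/set-16 among them, are left out of this set.
H12C20.7/nhr-68, chrV:11573002-11573102: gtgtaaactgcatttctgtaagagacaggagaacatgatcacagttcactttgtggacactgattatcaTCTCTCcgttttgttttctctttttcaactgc
ecps-1/atx-2, chrIII:10460705-10460805: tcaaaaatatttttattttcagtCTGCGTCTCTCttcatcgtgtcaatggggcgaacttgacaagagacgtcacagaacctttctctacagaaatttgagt
gmps-1/cap-2, chrII:10868909-10869009: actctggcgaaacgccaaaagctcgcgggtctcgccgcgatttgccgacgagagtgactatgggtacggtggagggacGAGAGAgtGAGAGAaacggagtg
In the ecps-1/atx-2 window both motifs overlap in 1 run on the minus strand, and in the gmps-1/cap-2 window the GAGA repeat occurs more than once. nhr-68 encodes another nuclear hormone receptor, atx-2 the relative of human ataxin-2, and cap-2 a subunit of the actin capping protein.

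The third set holds members with the E-box (CACGTG, capitals), a palindrome bound by basic helix-loop-helix factors. They were taken under the same limits of chromosome and exons, which leave out stronger members with this motif.
mif-4/ipla-6, chrIV:6336835-6336935: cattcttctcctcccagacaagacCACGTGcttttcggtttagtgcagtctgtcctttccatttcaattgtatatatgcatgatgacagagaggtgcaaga
R107.5/cls-2, chrIII:9054037-9054137: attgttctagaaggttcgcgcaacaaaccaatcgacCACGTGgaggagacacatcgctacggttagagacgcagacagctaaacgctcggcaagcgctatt
The last set holds the strongest members under the same limits with none of the 16 motifs, and so has no capitals.
rpl-20/Y17G9B.5, chrIV:4750021-4750121: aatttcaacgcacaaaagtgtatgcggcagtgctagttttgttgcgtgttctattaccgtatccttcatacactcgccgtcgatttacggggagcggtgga
F01D4.5/ced-5, chrIV:10483868-10483968: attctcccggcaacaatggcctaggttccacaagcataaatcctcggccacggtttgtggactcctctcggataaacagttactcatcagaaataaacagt
rpl-20 is a gene of the large ribosomal subunit, and ced-5 encodes a regulator of Rac signalling in cell-corpse engulfment. The rpl-20/Y17G9B.5 peak had the highest signal of all members, so the strongest peak between divergent genes carried no match to any motif searched.

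Divergent peaks were dense for the little sequence in which they could occur. Autosomal bases within the windows of coding genes on both strands summed to 2183 kb and held 267 member summits per Mb (exact 95% Poisson interval 246 to 289.7). Bases within windows on 1 strand summed to 19999 kb and held 64.7 one-sided summits per Mb (61.2 to 68.3). Counted only over bases outside coding genes, the densities were 424 per Mb (388 to 463) and 104 per Mb (97.3 to 111), so the classes differed there too. A summit is nearer to more 5′ ends in a two-strand window by construction, and whether density follows the number of 5′ ends was not tested.

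A head-to-head pair is here 2 coding genes on opposite strands whose windows share at least 1 base. Of 3022 autosomal pairs, 603 held a member, a background of 20% (18.5 to 21.4%). These pairs involve 1163 coding genes, which is 6.75% of the 17242 autosomal coding genes and 21.1% of the 5507 that have a head-to-head partner. In all, 542 members lay in windows of exactly 2 coding genes, 40 in windows of 3 and 1 in windows of 4. The share of pairs with a member was 29.3% on chromosome III (25.4 to 33.5%) and 15% on chromosome V (12.6 to 17.7%), with 23.4% on I, 18.3% on IV and 17% on II between them. On X, outside the rule, 26 of 199 pairs held a divergent peak, or 13.1% (8.72 to 18.6%), an interval that overlaps that of chromosome V. The 25 divergent peaks of X were 2.85% of the 877 peaks there, and X had 125 kb of two-strand windows.

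The share of pairs with a member varied with the distance between the 5′ ends. Pairs 200 to 399 bp apart held a member in 185 of 479 cases, or 38.6% (34.2 to 43.1%). Pairs 400 to 599 bp apart did so in 31.0% and pairs 600 to 799 bp apart in 28.7%. The shares were lower for shorter and for longer distances, at 20.2% for 0 to 199 bp, 17.9% for 800 to 1199 bp and 3.31% for 1200 to 2000 bp. Of 55 pairs with overlapping 5′ ends 7 held a member, or 12.7% (5.27 to 24.5%). The stretch that belongs to both windows is narrow at both ends of this range, so the shares are not per base. That stretch is not narrower for pairs 800 to 1199 bp apart than for pairs 200 to 399 bp apart. The median distance at members was 485 bp (quartiles 296 and 742 bp), against 768 bp over all pairs.

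**Figure D1:**
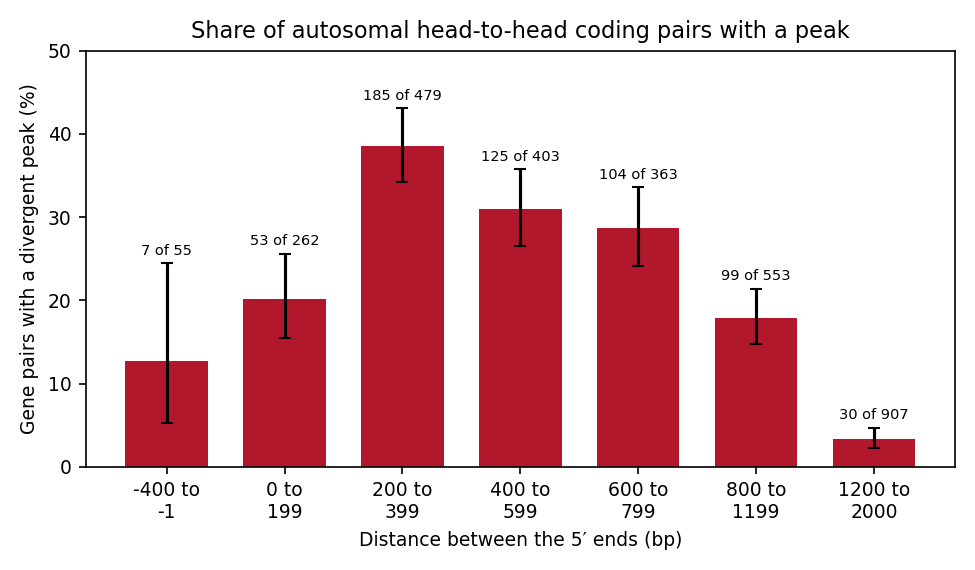
Share of autosomal head-to-head coding pairs with a divergent peak (vertical axis, %) by the distance between their 5′ ends (horizontal axis, bp), with exact 95% binomial intervals and counts above the bars. The highest bar, 38.6%, is that of pairs 200 to 399 bp apart, and the lowest, 3.31%, that of pairs 1200 to 2000 bp apart.

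The extremes of the range are single loci. The widest pair with a member was egrh-2/lep-2 on chromosome IV, with 5′ ends 1831 bp apart and a signal of 126.8 in the final list, 56.1 in replicate 1 and 71.9 in replicate 2. At the other end, Y50D4A.4/wrb-1 on chromosome V had 5′ ends that overlapped by 55 bp (a distance of -55 bp) and a signal of 177.6, with 74.0 in replicate 1 and 103.7 in replicate 2. Both peaks were present in both replicates. Signals are the authors' peak scores on a scale they do not state and are compared only within a list.

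Of the 583 summits 545, or 93.5% (91.2 to 95.3%), lay between the 5′ ends. The rule itself confines summits to bases in windows on both strands. Of the bases in both windows of a member's nearest pair, 56.8% on average lie between the ends, and the shares are given as a description with no test. Summits lay at a median of 142 bp from the nearer end and 326 bp from the farther. The median distance from the midpoint was 88 bp, and 54.5% of summits (50.4 to 58.6%) lay within 100 bp of it. For pairs more than 1000 bp apart the rule itself keeps summits near the middle, so the position within the stretch was compared only for the 475 members with distances of 200 to 1000 bp. There 45.5% of summits (40.9 to 50.1%) fell in the middle of 3 equal stretches, 22.5% (18.8 to 26.6%) in the stretch next to the minus-strand gene and 27.6% (23.6 to 31.8%) in that next to the plus-strand gene. Summits were nearer to the minus-strand gene in 45.6% of members (41.5 to 49.8%), and strand is only a matter of how the chromosome is drawn. The peaks themselves reached both 5′ ends in 12.7% of members and neither in 48%.

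**Figure D2:**
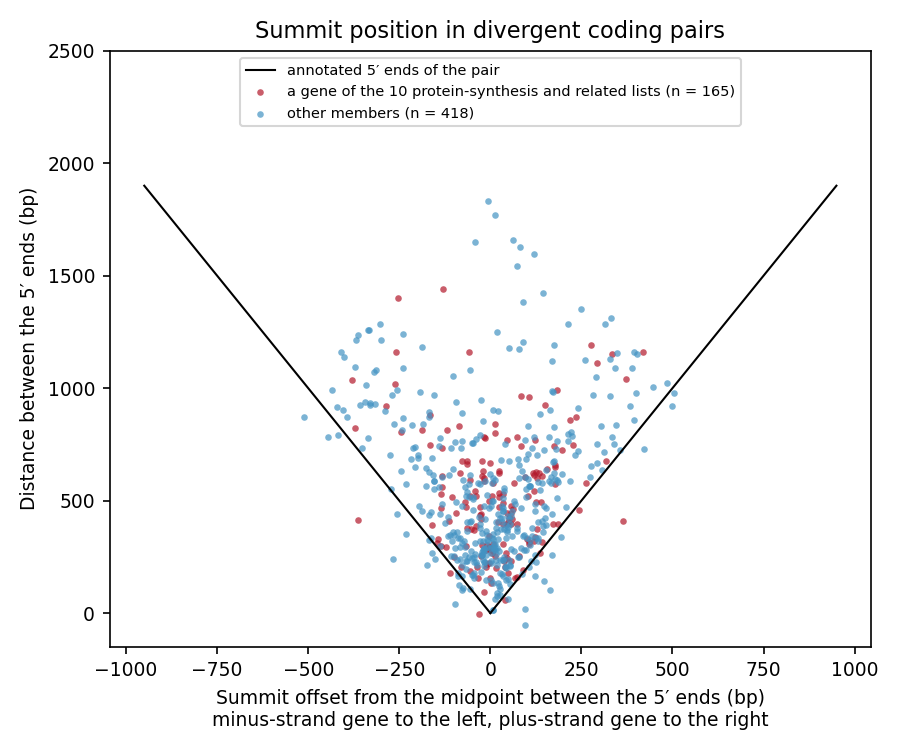
Offset of each member's summit from the midpoint between the 5′ ends of its pair (horizontal axis, bp, minus-strand gene to the left) against the distance between those ends (vertical axis, bp), with black lines at the 5′ ends. Red points are the 165 members with a gene of the 10 core-machinery lists and blue points the other 418, and 93.5% of all points fall inside the lines, where 56.8% of the admitted bases lie on average.

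Most members lay in sequence annotated to no gene. The summit was intergenic in 80.3% of members and in 68.1% of one-sided peaks, a difference of 12.2 percentage points (Newcombe-Wilson 95% interval 7.96 to 16.2). The classes also differ by construction in the sequence they can occupy, since 54.7% of two-strand window bases and 44.3% of one-strand window bases lie outside coding genes. Summits outside coding genes were 87.0% of members and 71.2% of one-sided peaks. Introns held 5.32% of member summits and 16.7% of one-sided summits, and coding exons 1.03% and 4.64%. Noncoding genes outside coding genes held 6.69% of member summits (4.80 to 9.03%) and 3.09% of one-sided summits (2.22 to 4.19%). Windows of noncoding genes or pseudogenes other than piRNAs covered 11.3% of members and 11.3% of one-sided summits, a difference of 0.0379 points (-2.93 to 3.29).

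Divergent peaks were stronger than one-sided peaks in the final list and in each replicate. The median signal was 162.5 in members (quartiles 104.9 and 281.5) and 120.8 in one-sided peaks (86.2 and 195.4) in the final list. Replicate 1 gave medians of 87.3 in members and 64.1 in one-sided peaks, and replicate 2 gave 82.5 and 62.3 in the same order. Among the 500 strongest peaks of the final list were 22.3% of members and 12% of one-sided peaks, a difference of 10.3 points (6.61 to 14.2). Among the 1000 strongest were 41.2% and 23.7%, a difference of 17.4 points (12.8 to 22.1). The distributions overlapped widely, and the single strongest peak of the list, at a signal of 1699.5, was one-sided. Across members the distance between the 5′ ends and the signal were almost unrelated (Spearman's rho -0.0518 over 583 peaks, a description).

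**Figure D3:**
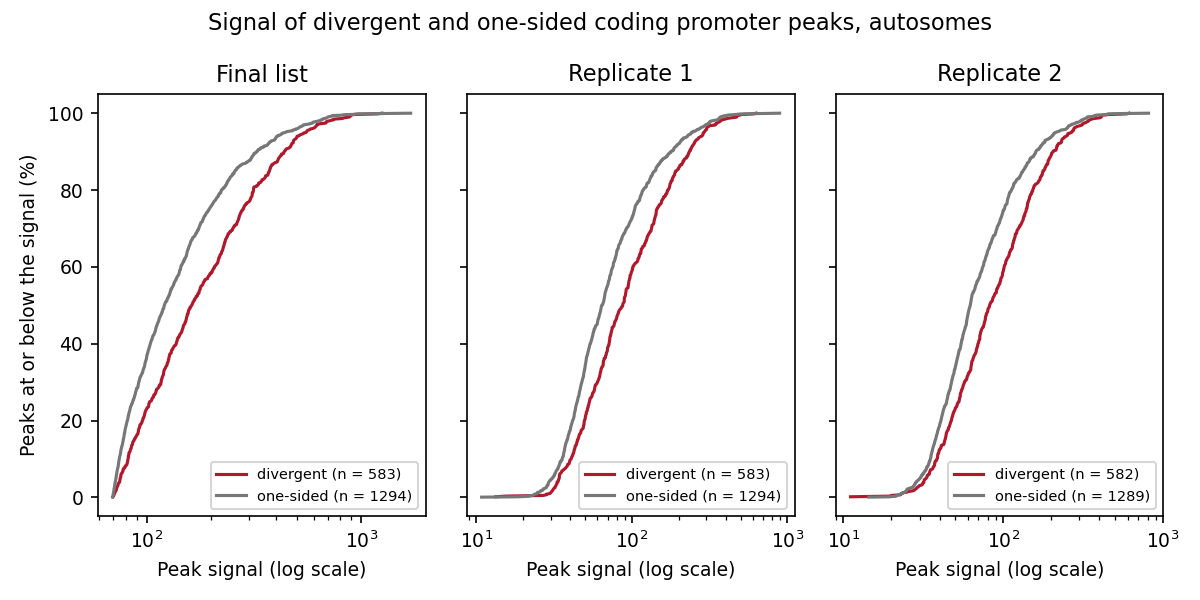
Cumulative share of peaks (vertical axis, %) at or below a signal (horizontal axis, log scale, the authors' units) for divergent peaks (red) and one-sided peaks (grey), in the final list and for the strongest overlapping candidate of each replicate. The red curve lies to the right over most of its length in all 3 panels, with medians of 162.5 and 120.8 in the final list.

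The replicates placed the divergent peaks alike. Every member overlapped a candidate peak of replicate 1 and 582 of 583 one of replicate 2, though candidate lists include background and the final list was itself drawn from both. Restricting each replicate to as many of its strongest candidates as the final list holds, 85.9% of members and 77.5% of one-sided peaks were matched in both, a difference of 8.42 points (4.66 to 11.9). The replicates' summits were within 50 bp of each other for 88.8% of members and 79.7% of one-sided peaks, and the median distance was 13 bp and 19 bp. The signals of the replicates correlated with a Spearman's rho of 0.899 over 582 members and 0.798 over 1289 one-sided peaks, given as descriptions of peaks from the same 2 libraries.

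Several of the strongest members had a gene of protein synthesis or folding in their pair, though the summits described here were nearer to its partner. The rpl-20/Y17G9B.5 peak had a signal of 1247.7, with 628.3 in replicate 1 and 612.0 in replicate 2, and ranked 5 of the 4133 peaks. Its summit was 293 bp from the rpl-20 5′ end and 169 bp from that of Y17G9B.5. K01G5.10/tasp-1 followed at 1194.1, with 607.5 in replicate 1 and 593.1 in replicate 2. Its summit was 58 bp from the tasp-1 5′ end and 727 bp from that of K01G5.10, so one gene of the pair was much nearer than the other. C47E8.4/hsp-90 had 919.2 in the final list, with 507.8 in replicate 1 and 411.1 in replicate 2. Its summit fell in an annotated intron, 414 bp from the hsp-90 5′ end and 261 bp from that of C47E8.4. Y22D7AL.10/hsp-60, with the gene of the mitochondrial chaperonin, had 874.3, with 470.7 and 401.3 in replicates 1 and 2. The summit was 595 bp from the hsp-60 5′ end in a pair with ends 813 bp apart, and so nearer to Y22D7AL.10. Both replicates ranked all of these among their 40 strongest candidates.

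Regulators of chromatin and RNA were among the partners. drr-2/set-16 had a signal of 897.8 (436.5 in replicate 1 and 461.4 in replicate 2). cux-7/C07H6.2 had 891.9 (492.0 and 411.6), and the window of lig-4, which encodes DNA ligase IV, also covered this summit. nhl-2/tag-340 had 887.7 (471.6 and 416.8), and nhl-2 encodes a TRIM-NHL protein that acts with microRNAs. That pair was wide, with 5′ ends 1423 bp apart and the summit in an annotated noncoding gene. rpl-12/lin-54 had 817.9 (409.3 and 411.3), with the summit 36 bp from the 5′ end of rpl-12 and 357 bp from that of lin-54, the DNA-binding subunit of the DREAM repressor complex.

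Ribosomal protein genes recurred with varied partners. ifet-1/rps-1 had 742.4 (397.4 in replicate 1 and 341.7 in replicate 2), where ifet-1 encodes a relative of the eIF4E transporter. rps-19/hsr-9 had 722.7 (375.3 and 349.9), where hsr-9 encodes a relative of the DNA damage protein 53BP1. rps-15/F36A2.9 had 687.2 (349.2 and 334.3). Other pairs of this rank joined unlike genes: larp-1/wip-1 (742.7), mig-5/cct-1 (701.8) and ndk-1/F25H2.6 (622.0), where larp-1 encodes a La-related RNA-binding protein, wip-1 a partner of the actin regulator WASP, mig-5 a Dishevelled protein of Wnt signalling, cct-1 a subunit of the cytosolic chaperonin and ndk-1 a nucleoside diphosphate kinase. F56G4.6/wbp-4 (830.1), gpap-1/scpr-1 (683.6), F10E9.7/F10E9.5 (643.2) and F01D4.5/ced-5 (618.9) were also among the 20 strongest. F25H9.6/F25H9.7 had 621.9 although its 5′ ends were only 15 bp apart. The histone pair his-67/his-68 had 686.4 (349.4 in replicate 1 and 341.6 in replicate 2), and its summit was also in a window of alg-5, which encodes an Argonaute. Histone genes have near-identical copies, and how reads were placed among copies is not given in the sources used here.

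Genes of the basic machinery of the cell had a divergent peak more often than other partnered genes. The 10 lists of genes defined by symbol patterns, chosen with earlier results of these data known, cover ribosomes, mitochondrial ribosomes and import, proteasome, ubiquitin, respiration, translation factors, tRNA synthetases, chaperones, splicing, and RNA polymerase with Mediator and TFIID, and are called core machinery. Of their 336 autosomal members with a head-to-head partner, 179 had a divergent peak, or 53.3% (47.8 to 58.7%), beside 19.0% of the other 5171 partnered genes (18 to 20.1%). The difference was 34.2 points (28.8 to 39.6), with no test of the lists. A single peak can count for both genes of a pair, so the intervals over genes take as independent what is not. Conversely 165 of 583 members, or 28.3%, had at least 1 such gene. Genes of these lists also had one-sided peaks. With or without a partner, 22 of 76 autosomal cytosolic ribosomal protein genes and 3 of 32 tRNA synthetase genes had a one-sided peak and no divergent one. The share of all coding genes with only a one-sided peak is not given here. Whether the difference is particular to divergent peaks was not tested. Where exactly 1 gene of the nearest pair was of the core machinery, the summit was nearer to it in 68 of 143 members, or 47.6% (39.1 to 56.1%), an interval that includes an even split.

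Cytosolic ribosomal protein genes had a divergent peak in 29 of 51 partnered cases, or 56.9%, beside the background of 21.1%, led by rpl-20, rpl-12 and rps-1. Genes of mitochondrial ribosomes and import had one in 20 of 35, with mrps-7 at a signal of 469.0 (253.2 in replicate 1 and 206.3 in replicate 2), mrps-35 at 344.4 and mrpl-18 at 314.3. The proteasome, which degrades tagged proteins, had 14 of 24, with rpn-3 at 410.6, rpt-2 at 289.4 and pbs-1 at 262.3. These 3 lists had shares of similar size. The ubiquitin list takes in genes of ubiquitin conjugation and removal. It stood lower at 10 of 35, or 28.6% (14.6 to 46.3%), an interval that includes the background. Its strongest gene was ubc-6 at 344.5, ahead of ubq-2 and usp-48.

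Respiratory chain and ATP synthase genes had a divergent peak in 21 of 43 cases, or 48.8%, led by atp-1 at 475.3 (228.7 in replicate 1 and 241.3 in replicate 2), whose 5′ end was 4 bp from the summit, and then ndub-8 and ndua-8. Translation factors had 17 of 29, with the elongation factor genes eef-1A.1 at 556.7 (303.8 and 253.7) and eef-2 at 500.9 (253.0 and 242.0), followed by abcf-2 at 470.8. Of 15 partnered tRNA synthetase genes 8 had one, with ears-2 at 445.1, mars-1 at 229.9 and kars-1 at 226.0. The chaperone list had 23 of 40, led by hsp-90, hsp-60 and cct-1. Splicing genes had 23 of 39, with prp-19 at 488.3, teg-1 at 372.4 and snr-1 at 340.4, and the polymerase, Mediator and TFIID list had 14 of 25, with mdt-19 at 494.4, taf-4 at 369.0 and mdt-6 at 325.5. The mdt-19 summit lay 771 bp from that gene and 248 bp from its partner apb-1, so a count of genes at a peak does not say which gene of a pair the peak belongs to.

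Pairs of 2 core-machinery genes held a member in 18 of 32 cases, or 56.2% (37.7 to 73.6%). Over all autosomal head-to-head pairs, 603 of 3022, or 20%, held one. Members with both nearest genes in these lists numbered 17. The strongest was hsp-110/rpn-3, a chaperone and a proteasome subunit, at 410.6 (234.6 in replicate 1 and 175.1 in replicate 2). rps-14/rpl-36, with a protein of each ribosomal subunit, had 378.6 (182.0 and 199.2), and the splicing factor pair rsp-2/rsp-1 had 314.9 (188.8 and 131.6). Strength varied widely within the group. dnj-29/ndua-2 (292.6), clu-1/prp-40 (282.7), rpl-28/mrpl-49 (238.8), pas-4/rpb-3 (215.0), erfa-3/math-33 (168.0), rpl-39/rps-30 (143.2), nars-1/nduf-6 (136.3), rpl-36.A/nuo-1 (130.3) and snr-3/rsp-5 (124.6) came next. The weakest were rps-9/lsm-1 (92.7), mrps-23/prp-40 (84.9), pbs-2/eif-6 (78.6) and prp-9/mrps-18B (70.8). hsp-16.2/hsp-16.41, the divergent pair of small heat shock genes that share a heat-inducible promoter, had 120.1, with 53.2 in replicate 1 and 71.4 in replicate 2. Its summit was 106 bp from hsp-16.2 and 115 bp from hsp-16.41, almost at the midpoint, and this family too has near-identical copies elsewhere on the chromosome.

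**Figure D4:**
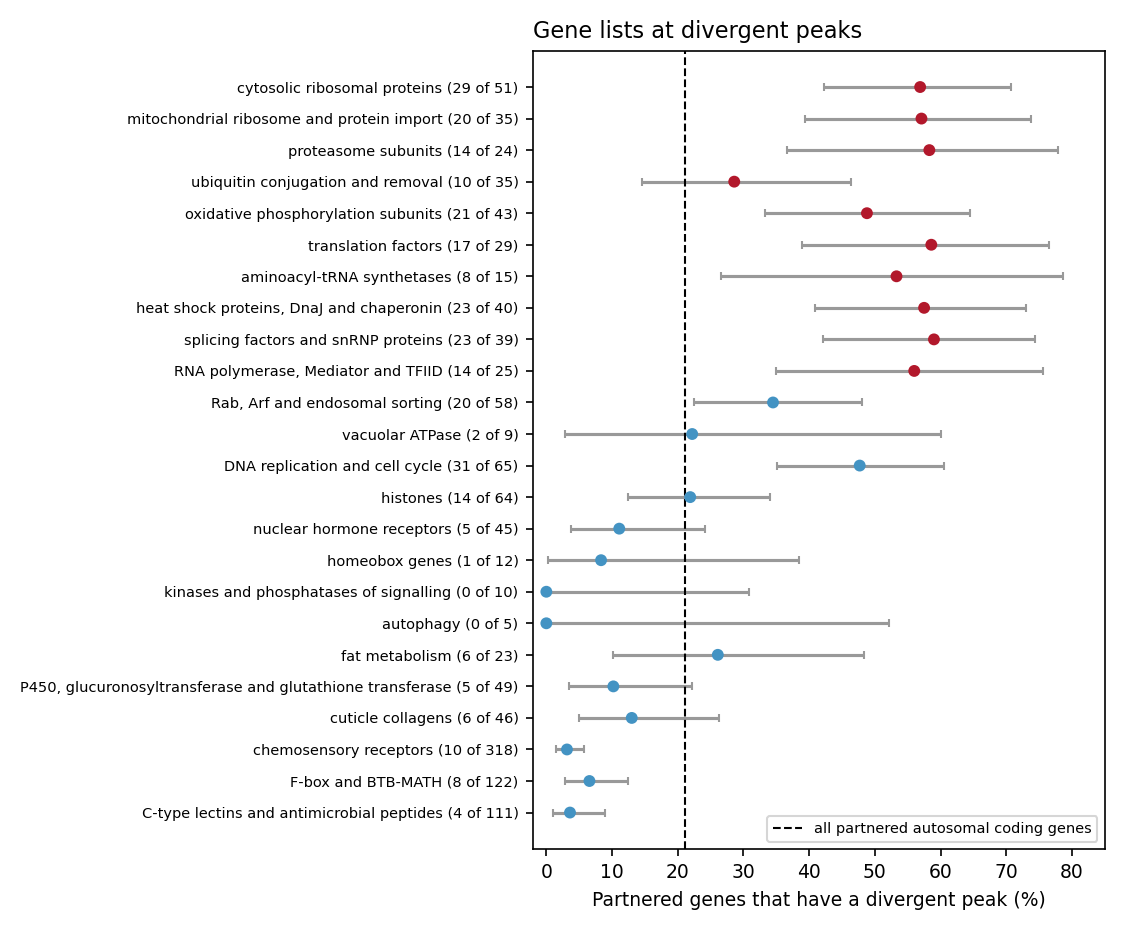
Share of autosomal genes with a head-to-head partner that had a divergent peak (horizontal axis, %) for 24 gene lists (vertical axis, with counts), with exact 95% binomial intervals. These intervals take genes as independent, though a single peak can count for both genes of a pair. Red points are the 10 core-machinery lists, blue points the other lists, and the dashed line the 21.1% of all partnered autosomal coding genes.

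Nuclear and trafficking genes varied. DNA replication and cell cycle genes had a divergent peak in 31 of 65 partnered cases, or 47.7% (35.1 to 60.5%), with rfc-4, the partner of eef-1A.1, at 556.7, emb-1 at 488.3 and hcp-6 at 442.8. The emb-1 peak is the same peak that was counted for prp-19, with its summit 19 bp from emb-1 and 656 bp from prp-19. Rab, Arf and endosomal sorting genes had 20 of 58, or 34.5% (22.5 to 48.1%). The strongest gene that this symbol pattern picked up was sec-61.B at 614.2, which encodes a translocon subunit and not a sorting protein, opposite the translocon-associated gene trap-3. vps-51 followed at 482.9 opposite lin-35, the C. elegans retinoblastoma gene, and syx-5 at 482.5. Histone genes had 14 of 64, or 21.9% (12.5 to 34.0%), close to the background, and the 14 genes formed 7 divergent histone pairs, with his-3/his-4 at 201.8 second to his-67/his-68. The vacuolar ATPase had 2 of 9, vha-8 at 316.0 and vha-1 at 177.8.

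Of 45 partnered nuclear hormone receptor genes 5 had a divergent peak, or 11.1% (3.71 to 24.1%), an interval that includes the background of 21.1%. H12C20.7/nhr-68 had a signal of 563.2 (286.1 in replicate 1 and 277.7 in replicate 2), with the summit 62 bp from H12C20.7 and 388 bp from nhr-68. dnj-19/nhr-47 had 408.9 (213.0 and 194.0), with the summit 12 bp from nhr-47, and nhr-142/F44E7.9 had 329.8 (183.0 and 141.8). The weaker ones were nhr-80, with 2 peaks at 123.3 and 75, and nhr-101 at 73.6, which were chosen after their values were seen to complete the 5. The replicates differed most at the stronger nhr-80 peak, with 87.1 in replicate 1 and 36.4 in replicate 2. Among all 247 autosomal receptor genes, with or without a head-to-head partner, 33 had a one-sided peak and no divergent one. The share of all coding genes with only a one-sided peak is not given here, so this count has no background. Among homeobox genes 1 of 12, ceh-38 at 314.6, had a member, and none of 10 signalling kinase or phosphatase genes or of 5 autophagy genes did, counts too small to set apart from the background. These small counts moved with the replicate, to 2 homeobox genes with the peaks of replicate 1 alone and to 1 autophagy gene with those of replicate 2 alone.

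The shares of fat metabolism, detoxification and cuticle collagen genes all had intervals that include the background. Fat metabolism genes had 6 of 23, or 26.1% (10.2 to 48.4%), led by ech-5 at 499.9, cpt-2 at 406.5 and dgat-2 at 156.2. Detoxification genes had 5 of 49, or 10.2% (3.40 to 22.2%), with gstk-1 at 146.2 and the pair ugt-11/ugt-9 at 105.3, and cuticle collagens had 6 of 46, or 13.0% (4.94 to 26.3%), with col-71 at 314.2, col-38 at 257.3 and col-2 at 162.8. Partners again mixed gene classes, since col-38 faces the ribosomal gene rpl-5 and col-2 faces the kinetochore gene ndc-80. Chemosensory receptor genes had 10 of 318, or 3.14% (1.52 to 5.71%). Among these, sri-5, at 372.0, faces the splicing gene rsr-1. The list was drawn up by symbol pattern, which goes by letters only and can take in genes of other function. Genes of the F-box and BTB-MATH families had a divergent peak in 8 of 122 cases, or 6.56% (2.87 to 12.5%), with fbxb-85 at 574.4, fbxa-90 at 436.0 opposite the E2F gene efl-1, and bath-36 at 297.2. C-type lectins and antimicrobial peptides had 4 of 111, or 3.6% (0.990 to 8.97%), with fipr-17 at 216.8, clec-53 at 145.3 and fipr-22 at 114.1. The intervals of the last 3 lists lie under the background of 21.1%.

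The motifs within 50 bp of the summits were compared with a window of equal width centred 300 bp away on a random side of each summit, on both strands, by two-sided exact McNemar tests adjusted over the 16 motifs by the Benjamini-Hochberg method with a threshold of 0.05. The tests take peaks as independent, though 24 members overlap another member. The motifs were chosen with earlier results of these data known, so the p-values describe these peaks and are not independent evidence. At member summits 4 of 16 motifs were more frequent than in the flanks (25%) and 2 less frequent (12.5%), and 8 differed at an unadjusted p under 0.05. At one-sided summits 6 were more frequent (37.5%) and 5 less frequent (31.2%).

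GCGCG was the leading motif of the divergent peaks. It was present at 40.3% of member summits (36.3 to 44.4%) and in 4.46% of their flanks, a ratio of 9.04 (adjusted exact McNemar p = 1.8e-45, present at the summit only in 228 members and in the flank only in 19). One-sided summits held it in 25.7%, a difference of 14.6 points (9.96 to 19.2), and the difference was 14.0 points with the peaks of replicate 1 alone and 14.6 with those of replicate 2 alone. Of 3019 midpoints of head-to-head pairs 9.34% held it, as did 6.95% of the 2417 midpoints without a member. The median distance of GCGCG from the member summit was 15 bp, and it lay within 20 bp in 64.3% of the 235 members that had it. The Sp1 site (GGGCGG), a GC-rich element of many animal promoters, was present at 7.89% of member summits and in 0.858% of flanks (adjusted exact McNemar p = 4.4e-09). One-sided summits held the Sp1 site in 6.34%, and the difference of 1.55 points had an interval from -0.862 to 4.30. The median GC content was 45.5% at member summits and 36.6% in their flanks, and 44.6% at one-sided summits, and its part in these motif shares was not tested.

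GAGA repeats and EOR-1 sites were present at divergent summits more than in the flanks, and less often than at one-sided summits. GAGAGA was found at 14.9% of member summits and in 5.49% of flanks (adjusted exact McNemar p = 6.7e-07), and at 23.4% of one-sided summits, a difference of -8.49 points (-12.1 to -4.66). GAGACGCAG was found at 5.66% and in 0.686% of flanks (adjusted exact McNemar p = 1.3e-06), and at 9.89% of one-sided summits, a difference of -4.23 points (-6.60 to -1.58). All pair midpoints held the 2 motifs in 6.59% and 0.828%. Exons lay in 29.7% of summit windows and 71.5% of flank windows, and among the 119 members with no exon in either window, a subset chosen after seeing the data, only GCGCG kept an adjusted p under 0.05 among the 4. There the ratios were 1.77 for GAGA (adjusted exact McNemar p = 0.389), 3 for EOR-1 (0.444) and 3.50 for Sp1 (0.444).

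The E-box and the receptor half-site were scarce. CACGTG was present at 2.40% of member summits (1.32 to 4.00%) and in 2.23% of flanks (1.19 to 3.78%; adjusted exact McNemar p = 1), whereas one-sided summits held it in 8.73%, a difference of -6.33 points (-8.25 to -4.20). The nuclear receptor half-site AGGTCA was at 2.23% of member summits and 2.57% of flanks (adjusted exact McNemar p = 0.966), and at 4.02% of one-sided summits, a difference of -1.79 points (-3.31 to 0.0225). The GATA site TGATAA was less frequent at member summits than in flanks, at 4.29% and 10.6% (adjusted exact McNemar p = 0.000127), and was at 11.7% of one-sided summits, a difference of -7.38 points (-9.69 to -4.82). With flanks 500 bp away its ratio was 0.556 and the call was lost (adjusted exact McNemar p = 0.0547). TTTCAG, the consensus of the splice acceptor used in trans-splicing and in ordinary splicing, was at 8.06% of member summits and 28.6% of flanks (adjusted exact McNemar p = 9.6e-20). Among the 119 members with no exon in either window the ratio for TTTCAG was 0.444 (adjusted exact McNemar p = 0.166). That subset is small, and the part of exons in the TTTCAG shares was not tested.

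**Figure D5:**
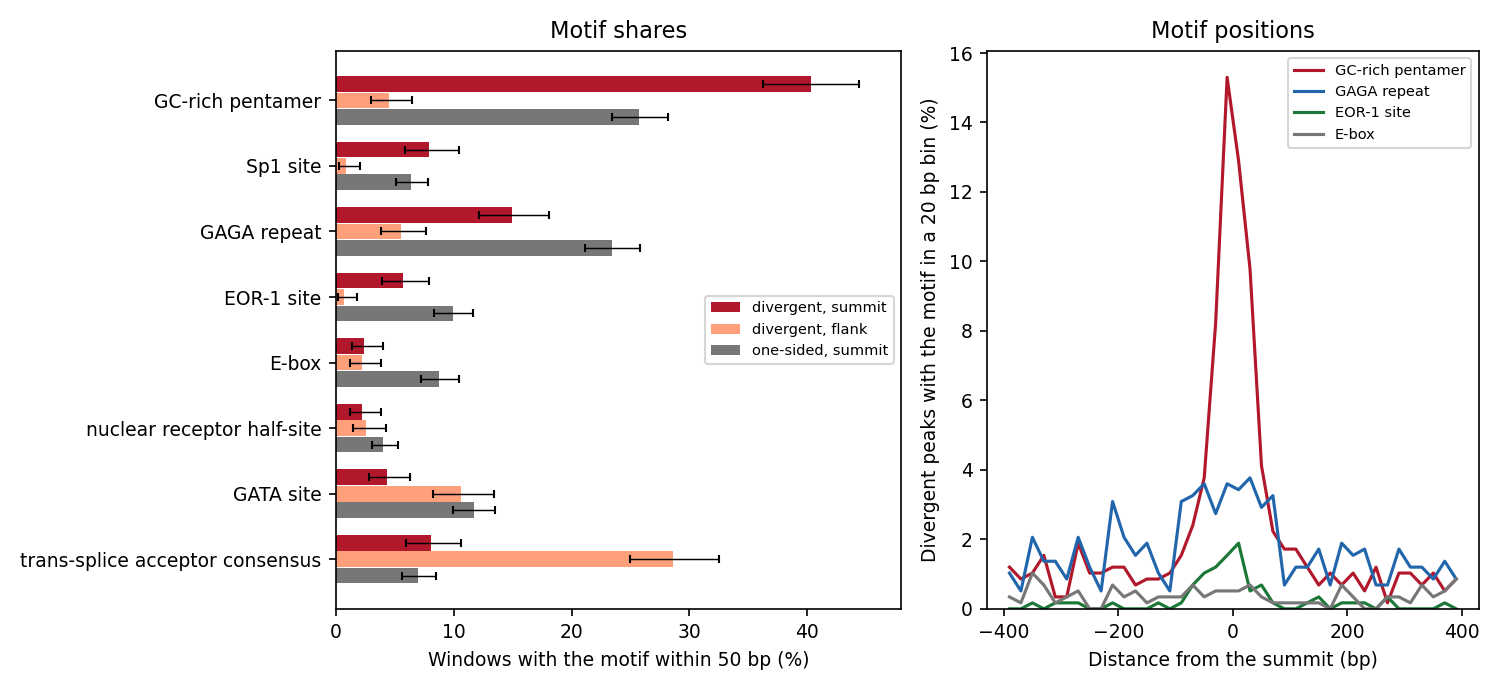
Left, share of windows with each motif (horizontal axis, %) at divergent summits (red), in their flanks (pale) and at one-sided summits (grey), with exact 95% binomial intervals. Right, share of divergent peaks with the motif in 20 bp bins (vertical axis, %) by distance from the summit (horizontal axis, bp), where the GC-rich pentamer reaches 15.3% next to the summit.

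The other motifs searched did not pass the test at member summits. They were the CAGCTG E-box (2.40% of summits and 1.72% of flanks), the half-site variant AGTTCA (5.32% and 6.00%), the forkhead site GTAAACA (1.72% and 1.89%), the AP-1 site TGACTCA (0.343% and 0.858%) and the T-block TTTTTTTT (5.32% and 6.00%). The TATA box TATAAA (6.35% and 10.1%, adjusted exact McNemar p = 0.0563) and the CRE site TGACGTCA (1.03% and 0%, adjusted exact McNemar p = 0.0625) came nearest to the threshold. CCAAT was common in both, at 17% and 16.3%.

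GCGCG or the Sp1 site was present at 255 members (43.7%), and GAGA or EOR-1 at 106 (18.2%). GCGCG stood together with GAGA or EOR-1 at 36 members, which is 34.0% of the 106 (25 to 43.8%), beside 40.3% of all members. GAGA or EOR-1 was found at 15.3% of members with GCGCG (11 to 20.6%) and at 20.1% of those without (16.0 to 24.7%), so the intervals overlap. EOR-1 and the E-box stood together at 1 member, R107.5/cls-2, on chromosome III, with a signal of 424.9. None of the 16 motifs was found at 126 members, or 21.6% (18.3 to 25.2%).

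GCGCG was found at strong and weak members and at narrow and wide pairs. The intervals of these groups overlap, and whether their shares differ was not tested. The median signal was 175.2 for the 235 members with GCGCG and 153.3 for the 348 without, and 157.4 and 163.9 with and without GAGA. GCGCG was present in 42.5% of the 146 strongest members and 33.8% of the 145 weakest (intervals 34.3 to 50.9% and 26.2 to 42.1%). Pairs up to 399 bp apart held it in 43.3% (36.8 to 49.9%) and wider pairs in 38.4% (33.2 to 43.7%). By gene content, GAGA was at 8.48% of members with a core-machinery gene (4.72 to 13.8%) and at 17.5% of the other members (13.9 to 21.5%), and GCGCG at 44.8% and 38.5%. The E-box was at 1 of 165 members with a core-machinery gene and at 13 of 418 others.

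Some pairs held more than 1 peak. The 583 members had 561 distinct nearest pairs, 21 of which held 2 or more members. At ecps-1/atx-2, shown above for its GAGA and EOR-1 run, the stronger peak (502.6) lay 204 bp from ecps-1 and the weaker (173.5) 75 bp from atx-2. At fib-1/mut-15, where fib-1 encodes the nucleolar protein fibrillarin, peaks of 419.7 and 118.1 lay 89 bp from fib-1 and 29 bp from mut-15. The intervals of these fib-1/mut-15 peaks overlap, and both were matched to the same candidate in each replicate, so the replicates as matched do not show them as separate peaks. The pair mars-1/F58B3.6 held 3, at 229.9, 93.4 and 81.6, and the strongest and the weakest of these were likewise matched to the same candidates. These pairs, apart from that of mars-1, were picked after their values were seen.

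The threshold of the final list cuts through a continuous range. The weakest members were gldi-11/ZK546.2 (70.1, with 32.5 in replicate 1 and 25.6 in replicate 2) and F48G7.10/pals-31 (69.6). At F48G7.10/pals-31 the replicates were far apart, with 13.3 in replicate 1 and 60.3 in replicate 2. Just outside were prcc-1/C39E9.12 at 68.8 and rsy-1/Y53H1A.2 at 68.7 in the pooled list of candidates.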

How the data were processed

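The authors deposited peak lists (narrowPeak layout, ce11) from ChIP-seq of 2 replicates in 1 group: candidates per replicate, candidates from pooled reads, and the final list thresholded on the irreproducible discovery rate, per the file listings. The deposited signal of each peak has no stated scale. The deposited −log10 q-value is constant in the final list and was not used for ranking, and the authors' summit offset gave positions. Which aligner and peak caller were used is not given in the sources used here, and the number of value columns without a sample was 0.

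Summits were assigned with Ensembl release 115 (WBcel235) in Python 3.11.15 (numpy 2.4.6, scipy 1.17.1, pandas 2.3.3). Each member was matched to the strongest overlapping candidate (1 bp or more) of each replicate, and 26 members shared a replicate 1 candidate with another. Members, lists and motifs were chosen with earlier results of these data known. Named genes are those of the 20 strongest members, pairs within core-machinery lists or a single list, up to 3 strongest per list, members and candidates at the threshold, extremes of distance, and sole holders of a motif pair. One gene that meets this rule is not reported here. No test compared groups of samples. The McNemar script was tested on simulated windows (583 windows, 16 motifs): 0 motifs were called without planting, and with 1 motif planted in 65 windows that motif and 0 others were called. Alternatives were each replicate alone, the 2066 strongest peaks, other promoter, motif and flank windows, outermost 5′ ends, another overlap rule, small RNA windows kept, and windows without exons. The builds' other lists (ce10) were not used.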

Additional observations from a re-analysis of the deposited data

How the results depend on the processing

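With the 2066 strongest peaks of the final list, 384 peaks met the rule, 23.2% of autosomal peaks and in 13.5% of pairs, at a median percentile of 61.3 (66.7 over the whole list) and a median offset of 78.2 bp. With windows of 500 bp upstream to 100 bp downstream the shares were 13.1% of peaks and 23.2% of pairs, and the offset 55.5 bp. With 2000 bp upstream, 24.5% of peaks met the rule, at a percentile of 62.1 and an offset of 135 bp. The cause of these shifts was not tested. Either replicate alone gave a percentile of 66.4 to 68.7. No paired analysis was possible because all samples belong to 1 group.

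Motifs less frequent at the summits numbered 4 with 25 bp either side and 1 with flanks 500 bp away, against 2. In the 119 members without exons in either window, 1 motif was more and 1 less frequent; this subset is small. The GC-rich pentamer kept its call under every alternative run. Ratios that crossed 1, for motifs not called in the main comparison and not called there, were these. The nuclear receptor half-site (0.867) had 1.09 and 1.71 with replicate 1 or 2 alone, 1.17 with small RNA windows kept, 1.08 with the other flank and 1.5 without exons. The forkhead site (0.909) had 1.86 and 1.10 with replicate 1 or 2 alone, 1.57 with small RNA windows kept, 1.30 at 100 bp either side, 3.33 with flanks 500 bp away and 1.67 with the other flank. CCAAT (1.04) had 0.915 with replicate 1 alone (with replicate 2 alone it did not cross 1, at 1.05), 0.900 and 0.855 at 25 and 100 bp either side, 0.839 with flanks 500 bp away and 0.980 with the other flank. The T-block (0.886) had 1.29 at 100 bp either side. The CAGCTG E-box (1.40) had 0.583 with flanks 500 bp away and 0 without exons. The cause was not tested. No ratio could be formed for the CRE site, which no flank held in the main comparison, nor for the EOR-1 site with flanks 500 bp away, where it was called (adjusted exact McNemar p = 1.2e-09). The CRE site at 100 bp either side was called (adjusted exact McNemar p = 0.0179). The TATA box passed the threshold with 25 bp either side, with either replicate alone, with small RNA windows kept and with the other flank (ratios 0.303 to 0.529). Counts per list moved by more than 1.5 times in 27 of 168 recomputed values, 2 of them with a single replicate. Depth is unknown, so how many weak divergent sites were missed cannot be given.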
